A study of Homo sapiens with 16 samples.

Results

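The 78 genes described here encode the proteins of the cytosolic ribosome. They were chosen by symbol, as every gene named RPL or RPS with a number (an A or X suffix allowed), RPLP0, RPLP1, RPLP2, RPSA or FAU. The rule used no measured value, but it was set with earlier results of these data known. They are 78 of the 61906 genes listed for both cell lines, 46 of the large subunit and 32 of the small subunit, and hold 819 of the 251295 transcripts listed, from 2 to 27 per gene. All 78 passed the filter on low counts in both lines. The samples came from HEK-293T, a human embryonic kidney line transformed with adenovirus DNA and expressing SV40 large T antigen, and from HT-1080, a line derived from a human fibrosarcoma. Each line was transfected with 20 nM of an siRNA against HNRNPH1 (siHNRNPH1) or of a control siRNA (siNegative), and RNA was taken 48 h later. No genotype or allele other than the line itself is given in the labels, and every group received an siRNA. Short-read RNA-seq gave 3 biological replicates in each of the 4 groups, 12 libraries in all, and long-read IsoSeq gave 1 pool per group, 4 pools.

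Cytosolic ribosomal proteins assemble with ribosomal RNA in the nucleolus into a large subunit, which holds the peptidyl transferase centre, and a small subunit, which decodes the mRNA. Their mRNAs are short, abundant and, as a class, begin with a 5′ terminal oligopyrimidine tract (TOP), a C at the first base followed by a run of pyrimidines, through which mTOR signalling and LARP1 set their translation and stability. HNRNPH1 is an RNA-binding protein that binds G-rich stretches and acts in splicing, so both the amount of each mRNA and the make-up of its transcripts were examined.

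The start of these genes is a feature that the choice by symbol did not use. RefSeq (GRCh38.p14) gave 78 starts for 63 of the 78 genes. A tract was counted where a C followed by at least 4 pyrimidines (C or T), on the strand of the gene, opened within 10 bases of the start. Such a tract was found in 58 of the 63 genes, 92.1%, against 38.4% of all 27305 genes with a RefSeq start and 33.8% of the 74 mitochondrial ribosomal protein genes with one. A tract of at least 8 bases was found in 50 of the 63, 79.4%, against 11.3% of all genes and 6.76% of the mitochondrial set. The windows below are those of genes that carry the results on abundance, from 10 bases before the start to 15 bases after it, with the tract in capitals, and RPS4X and RPL6 are shown because no tract opened in range at any of their RefSeq starts.
RPL28 (chr19:55385922-55385946, plus strand): cctcgCCTTCCTCTTTCCgtctcag
RPL11 (chr1:23691796-23691820, plus strand): gctccgCTTTCTCTTCCTgctctcc
RPL22 (chr1:6199581-6199605, minus strand): cgctcaCCTCCCTTTCTaactccgc
RPLP1 (chr15:69452808-69452832, plus strand): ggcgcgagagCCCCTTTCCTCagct
RPLP0 (chr12:120201097-120201121, minus strand): ggcgcgaggCCCTTCTCTCgccagg
RPL12 (chr9:127451392-127451416, minus strand): cgatttccggCCTCTCggctttcgg
RPL14 (chr3:40457329-40457353, plus strand): ggtCTTCTTCCTTCTCgcctaacgc
RPS27A (chr2:55232678-55232702, plus strand): ggcgttCTTCCTTTTCgatccgcca
RPS7 (chr2:3575250-3575274, plus strand): cgCCCTCCTCCTCgcgctgtttccg
RPS15 (chr19:1438386-1438410, plus strand): aggcgcggaccaaagcgatCTCTTC
RPL41 (chr12:56116623-56116647, plus strand): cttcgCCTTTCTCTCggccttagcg
RPS4X (chrX:72277234-72277258, minus strand): ctccagccccaatttctacgcgcac
RPL6 (chr12:112409271-112409295, minus strand): gacggcgcgtgcactgtgttcctgg
The tract was present in genes found at the upper and at the lower edge of the responses, RPL28 and RPLP0 among them. A tract is a description of these letters at an annotated start, not a measurement of where transcription began in these cells.

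The libraries held 107.75 to 121.03 M (mega) expected counts in HEK-293T and 27.3 to 32.7 M in HT-1080. HNRNPH1 stood at 1105 to 1121 CPM (counts per M counts of the library) in the siNegative and 234 to 394 CPM in the siHNRNPH1 libraries of HEK-293T, and at 606 to 635 and 229 to 232 CPM in HT-1080. SOX2 was found at 9.11 to 12.3 CPM in HEK-293T and at most 0.0343 CPM in HT-1080, and PLAU and CD44 at 1718 CPM or more in every HT-1080 library and at most 2.76 CPM in HEK-293T. The other HEK-293T markers were less clear, since SOX11 was at most 0.223 CPM there and CDH2 was as high in HT-1080, and MMP1 was at most 1.99 CPM in HT-1080. Markers of other cells (PTPRC, CD3E, HBB, ALB, PECAM1) were at most 0.279 CPM in every library. Each line had 1 library that stood apart by gene length. In siHNRNPH1 replicate 1 of HEK-293T, genes with models under 1000 nt (635 genes other than the members) had a median of 0.86 on the log2(CPM + 1) scale relative to the other libraries of its group, genes of 4000 nt or more (1726) a median of -0.80, and the ribosomal protein genes a median of 1.09. In siNegative replicate 2 of HT-1080 these medians were 0.25, -0.18 and 0.32. Ribosomal protein mRNAs are short (median model length 784 nt, against 2659 nt for the 12550 genes with a model). The main counts of calls and the medians of the ribosomal protein genes are therefore given with and without these libraries. Other values include these libraries unless stated. What made them differ was not tested.

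The part of all transcripts that came from ribosomal protein genes was similar in 10 of the 12 libraries and set apart in those 2. In HEK-293T the siNegative libraries gave 6.01%, 5.87% and 5.9995% of their counts to the 78 genes and the siHNRNPH1 libraries 11.1%, 5.41% and 5.31%. Replicate 1 was thus the highest of the line, and the other two siHNRNPH1 libraries were below all 3 controls. In HT-1080 the siNegative libraries gave 6.02%, 7.47% and 6.08% and the siHNRNPH1 libraries 6.52%, 6.78% and 6.68%. Here siNegative replicate 2 was the highest, and the siHNRNPH1 libraries were above the other controls. The group means were 5.96% ± 0.0757 and 7.28% ± 3.32 (SD, n = 3 each) in HEK-293T and 6.52% ± 0.818 and 6.66% ± 0.133 in HT-1080, and neither difference exceeded the spread between replicates. Without the library that stood apart, the difference, siHNRNPH1 minus siNegative, was -0.60 percentage points in HEK-293T and 0.61 in HT-1080. Both subunits followed this pattern, at 6.57% and 4.55% of replicate 1 of siHNRNPH1 in HEK-293T against 3.14% to 3.20% and 2.17% to 2.21% in the other siHNRNPH1 libraries. Other genes under 1000 nt moved the same way, with 7.13% of the counts of non-member genes with a model in that library against 3.64% to 4.17% in the rest of the line. In bulk RNA, less of an mRNA per cell and fewer cells that hold it cannot be told apart, nor can a changed share and a change in the total of all other transcripts.

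**Figure D1:**
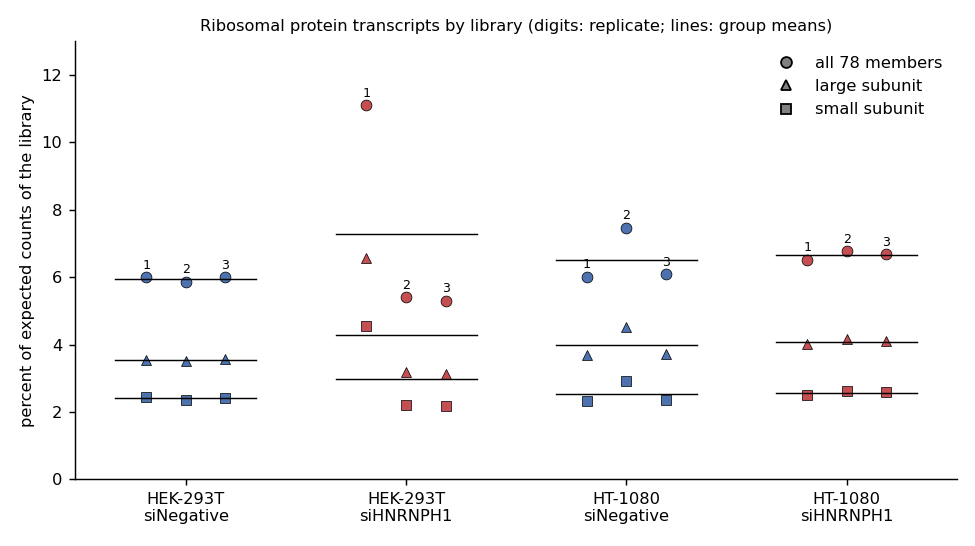
Percent of all expected counts in each library that came from the 78 ribosomal protein genes (circles), the 46 large subunit genes (triangles) and the 32 small subunit genes (squares), by group, with the replicate number above each circle and a line at each group mean. HEK-293T siHNRNPH1 replicate 1 is at 11.1% and HT-1080 siNegative replicate 2 at 7.47%, while the other 10 libraries lie between 5.31% and 6.78%.

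In HEK-293T with all 6 libraries, no ribosomal protein gene passed the test. The count was 0 of 78 in edgeR's quasi-likelihood test at a Benjamini-Hochberg (BH) adjusted p under 0.05, where 10.0% of the 19966 genes tested passed, and 0 in DESeq2, where 19.9% passed. At an unadjusted p under 0.05 there was 1 gene in edgeR, RPL28 (26.4% of all genes), and 2 in DESeq2 (29.9%). HNRNPH1 itself passed in edgeR with all 6 libraries, at a log2 fold change of -1.76. Its call was lost without each siNegative library in turn (edgeR BH-adjusted p of 0.0743 to 0.076) and without siHNRNPH1 replicate 2 (0.0514). The median log2 fold change of the 78 genes was 0.28 (0.29 for the large and 0.27 for the small subunit). The fold change was above 0 in 72 of 78, and the median over all genes tested was 0.02. Without siHNRNPH1 replicate 1 the same comparison gave 65 of 78 genes lower and 2 higher, with a median of -0.21, -0.21 for the large and -0.20 for the small subunit, where 61.8% of 20329 genes tested were called, 31.3% as lower and 30.5% as higher. That fit set 2 siHNRNPH1 libraries against 3 controls. The direction of the class in HEK-293T therefore rested on that 1 library. Under a scaling by the members themselves, chosen after the data were seen, the split without replicate 1 was 22 higher (48.1% of all genes) and 22 lower (17.3%), and the median of all genes moved to 0.20 from -0.01. When each library's trend of level on gene length was removed, 4 of the 76 genes with a length were higher (RPLP1, RPS19, FAU and RPS28) and 3 lower (RPL23A, RPS27A and RPL12) with all 6 libraries, where 8.69% of genes were called as higher and 9.93% as lower.

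RPL28 had the highest and RPL23A the lowest fold change in HEK-293T, both with and without replicate 1. RPL28, a large subunit protein found in eukaryotes, was at 237, 237 and 245 CPM in the siNegative and 614, 351 and 311 CPM in the siHNRNPH1 libraries. All siHNRNPH1 libraries were above all controls. Its log2 fold change was 0.82 ± 0.30 (SE; edgeR BH-adjusted p = 0.151) and, without replicate 1, 0.41 ± 0.04 (adjusted p = 3.28e-06). RPL22, a large subunit protein with a known role in T cell development, was at 363, 365 and 355 CPM in the controls. After siHNRNPH1 it was at 636, 429 and 443 CPM, so that its groups in CPM did not overlap either. Its share of all ribosomal protein counts did overlap, at 0.604%, 0.622% and 0.592% in the controls. After siHNRNPH1 this share of RPL22 was 0.572% in replicate 1, below every control, and 0.794% and 0.835% in the others. Without replicate 1 its change was 0.22 ± 0.03 (adjusted p = 5.89e-07). At the other end RPL23A, which lies at the exit of the nascent peptide tunnel, was at 911, 906 and 908 CPM in the controls and 1143, 567 and 555 CPM after siHNRNPH1. Replicate 1 was above the controls and the other two were far below. Its log2 fold change was -0.28 ± 0.33 with all libraries (adjusted p = 0.642) and -0.75 ± 0.03 without replicate 1 (adjusted p = 1.78e-16). The next lowest without replicate 1 were RPLP0, the scaffold of the ribosomal stalk (-0.60), RPS27A, which is made as a fusion to ubiquitin (-0.57), RPL12, which lies at the base of the stalk (-0.54), and RPL41, one of the smallest proteins of the cell (-0.49).

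**Figure D2:**
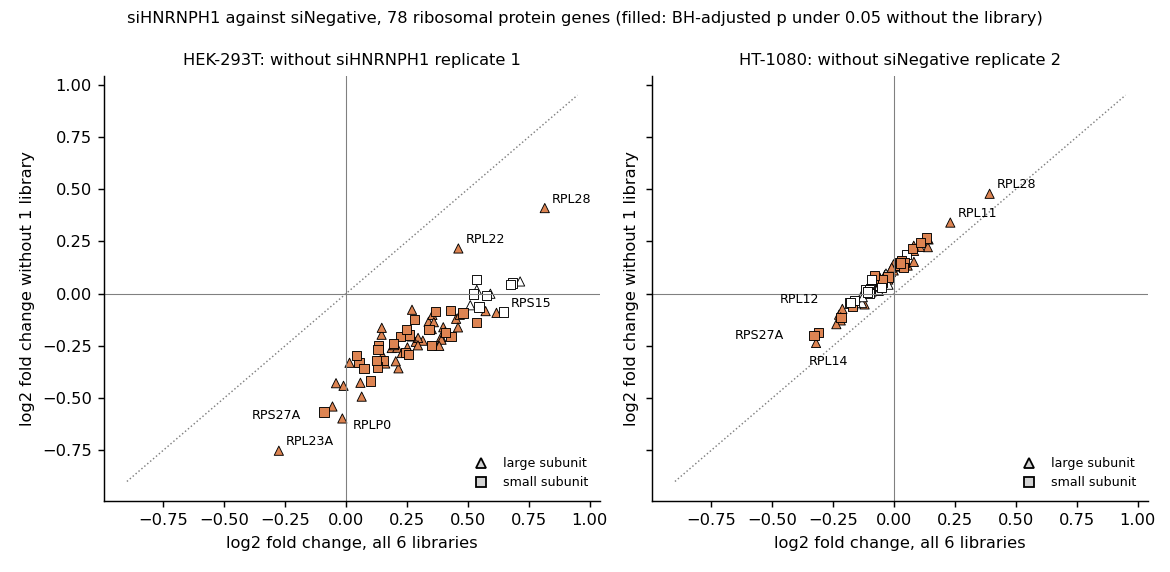
Log2 fold change of siHNRNPH1 against siNegative for each of the 78 genes, with all 6 libraries of the line (horizontal) and without the library that stood apart (vertical), for HEK-293T (left) and HT-1080 (right); triangles are large and squares small subunit genes, filled points had a BH-adjusted p under 0.05 without that library, and the dotted line marks equal values. In HEK-293T nearly all points lie below 0 on the vertical axis and above 0 on the horizontal one, with RPL28 highest and RPL23A lowest on both.

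In HT-1080 with all 6 libraries, 2 ribosomal protein genes rose and 7 fell. This is 9 of 78, where 65.3% of the 16145 genes tested were called, 32.7% as higher and 32.6% as lower. DESeq2 called 2 higher and 9 lower, against 29.8% and 30.8% of all genes. The median log2 fold change was -0.06 (-0.06 for the large and -0.05 for the small subunit), against 0.01 for all genes. The fold changes of the 78 genes ran from -0.33 to 0.39. Without siNegative replicate 2, 34 genes were higher and 11 lower, with a median of 0.06, where 70.2% of 16565 genes were called, 34.7% as higher and 35.5% as lower. All 9 genes called with all libraries were also called, in the same direction, without it. When any other library was left out in turn, RPL28 and RPL14 kept their calls in every case. RPS27A and RPS15 lost theirs without siHNRNPH1 replicate 1 (edgeR BH-adjusted p of 0.0524 and 0.0501), and RPL11, RPL5, RPLP0, RPL12 and RPS7 lost theirs without each siHNRNPH1 library in turn. RPL11 lost its call also without siNegative replicate 1 (adjusted p = 0.133) and replicate 3 (adjusted p = 0.127). Removing the length trend gave 40 higher and 5 lower of 76 with all libraries, where 37.7% of genes were called as higher and 39.4% as lower, so the sign of the class median in this line depended on the scaling as well as on that library.

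RPL28 was again the gene with the highest fold change. It was at 704, 866 and 756 CPM in the siNegative and 1073, 1085 and 1041 CPM in the siHNRNPH1 libraries of HT-1080. The groups did not overlap, and its log2 fold change was 0.39 ± 0.07 (SE; edgeR BH-adjusted p = 0.00114), or 0.48 ± 0.03 without siNegative replicate 2. The call was lost when the length trend was removed (0.35, adjusted p = 0.061). That fit took RPL28 as 3891 nt long, a median over 3 siNegative and 4 siHNRNPH1 models of the HT-1080 IsoSeq pools. RPL11, which with RPL5 and the 5S ribosomal RNA forms a particle known to bind MDM2, was at 821, 1026 and 839 CPM in the controls and 1067, 1116 and 1121 CPM after siHNRNPH1. It rose by 0.23 ± 0.08 (adjusted p = 0.0346). Its partner RPL5 was at 1227, 1484 and 1255 CPM against 1192, 1166 and 1171 CPM, below every control, and fell by 0.24 on the log2 scale (SE 0.07, adjusted p = 0.0177). With all libraries these partners of one particle thus had calls in opposite directions in HT-1080. The call of RPL11 was kept in 1 of 6 fits that left out a library, and that of RPL5 was lost when libraries were scaled by the members (adjusted p = 0.0868). Both were lower in HEK-293T without replicate 1, at -0.26 for RPL11 and -0.20 for RPL5.

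RPS27A was at 509, 656 and 513 CPM in the HT-1080 controls and 452, 481 and 469 CPM after siHNRNPH1, with a log2 fold change of -0.33 ± 0.09 (adjusted p = 0.0114). RPL14, a large subunit protein, was at 669, 790 and 669 CPM against 595, 607 and 585 CPM, a change of -0.32 ± 0.07 (adjusted p = 0.0027). RPS15, a protein of the small subunit head, was at 562, 727 and 586 CPM against 523, 542 and 523 CPM, a change of -0.31 ± 0.09 (adjusted p = 0.0127). In all 3 genes every siHNRNPH1 library was below every control. RPLP0, RPL12 and RPS7 completed the 7 lower genes, each at -0.22 with adjusted p of 0.026, 0.0368 and 0.0423. All 7 but RPS15 were among the 65 genes called as lower in HEK-293T once replicate 1 was left out. When all 12 libraries shared 1 estimate of the spread, none of the 78 was called in HT-1080, with an adjusted p of 0.284 for RPL28 and 0.388 for RPL14.

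Whether the lines responded differently was tested as a cell line by siRNA interaction over all 12 libraries. No ribosomal protein gene passed in edgeR, 0 of 78, where 19.0% of 21276 genes tested passed. At an unadjusted p under 0.05 there was 1 gene in edgeR (32.2% of all genes) and 2 in DESeq2 (34.3%), which called 1 gene lower (14.3%). The median difference of log2 fold change, HT-1080 minus HEK-293T, was -0.43, and 77 of 78 values were below 0. Without both libraries that stood apart the sign of the median was the opposite, at 0.25, and 63 genes had a more positive response in HT-1080 and 1 a more negative one, where 47.9% of 21734 genes were called, 23.5% as more positive and 24.5% as more negative. The differences were 0.72 ± 0.04 for RPL23A (adjusted p = 1.53e-18), 0.60 ± 0.04 for RPL41 and 0.58 ± 0.04 for RPL11. The 1 gene with a more negative response was RPL22, at -0.28 ± 0.04 (adjusted p = 2.99e-08). RPL28 gave no call there (0.05 ± 0.07, adjusted p = 0.591).

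To compare the genes among themselves without the part that moved them all, each gene was taken as a share of the summed counts of the 78. This share does not depend on the scaling of libraries. In 12 genes every siHNRNPH1 share was above every control share in both lines (4.39% of the 14879 genes with a mean of at least 1 CPM, taken against the same sum, did this), and in 15 genes every siHNRNPH1 share was below (9.07%). Another 8 genes were separated in opposite directions, 5 of them (FAU, RPL30, RPLP2, RPS15A and RPS19, against 2.26% of all genes) higher in HEK-293T and lower in HT-1080, and 3 (RPL6, RPL31 and RPS18, against 4.34%) the reverse. These shares carry no test, and since they add up to 100% within a library, they are not independent of one another. The percentages over all genes are not a like baseline. The higher sum of the members in the libraries that stood apart cancels for members and not for other genes. In CPM with all libraries, 1 member was separated upward in both lines and 0 downward.

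The 12 genes with a higher share were RPL28, RPLP1, RPS9, RPS28, RPL27A, RPSA, RPL39, RPS2, RPL8, RPL13A, RPL37A and RPL3, 8 of the large and 4 of the small subunit. RPL28 made up 0.395%, 0.404% and 0.408% of ribosomal protein counts in the siNegative and 0.552%, 0.650% and 0.587% in the siHNRNPH1 libraries of HEK-293T. In HT-1080 it made up 1.17%, 1.16% and 1.24% against 1.65%, 1.60% and 1.56%. Its mean log2 ratio, the highest of the 78 in each line, was 0.56 for HEK-293T and 0.43 for HT-1080. RPLP1, an acidic protein of the stalk, went from 0.923%, 0.944% and 0.882% to 1.36%, 1.15% and 1.06% in HEK-293T and from 1.54%, 1.56% and 1.52% to 1.64%, 1.74% and 1.72% in HT-1080. The ratios of RPLP1 were 0.37 and 0.15. RPS9, a protein of the small subunit body, had ratios of 0.34 and 0.07.

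The 15 genes with a lower share included RPL23A, RPS27A, RPL12, RPLP0, RPL37, RPL9, RPL23, RPS3A, RPS7, RPL17, RPS3, RPL29 and RPL10A, with 9 of the large and 6 of the small subunit. RPL23A made up 1.52%, 1.54% and 1.51% of ribosomal protein counts in the HEK-293T controls and 1.03%, 1.05% and 1.05% after siHNRNPH1, replicate 1 included. In HT-1080 the step was smaller, from 1.17%, 1.16% and 1.14% to 1.13%, 1.08% and 1.05%. RPS27A went from 1.51%, 1.46% and 1.45% to 1.13%, 1.12% and 1.18% in HEK-293T and from 0.846%, 0.879% and 0.843% to 0.693%, 0.709% and 0.701% in HT-1080. RPLP0 went from 2.73%, 2.75% and 2.78% to 2.37%, 2.10% and 2.11% in HEK-293T and from 3.38%, 3.28% and 3.39% to 2.98%, 2.92% and 2.96% in HT-1080. Of the members with a RefSeq start, a tract was present in 10 of 10 genes with a higher and 9 of 10 with a lower share, and one of at least 8 bases in 8 and 7.

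**Figure D3:**
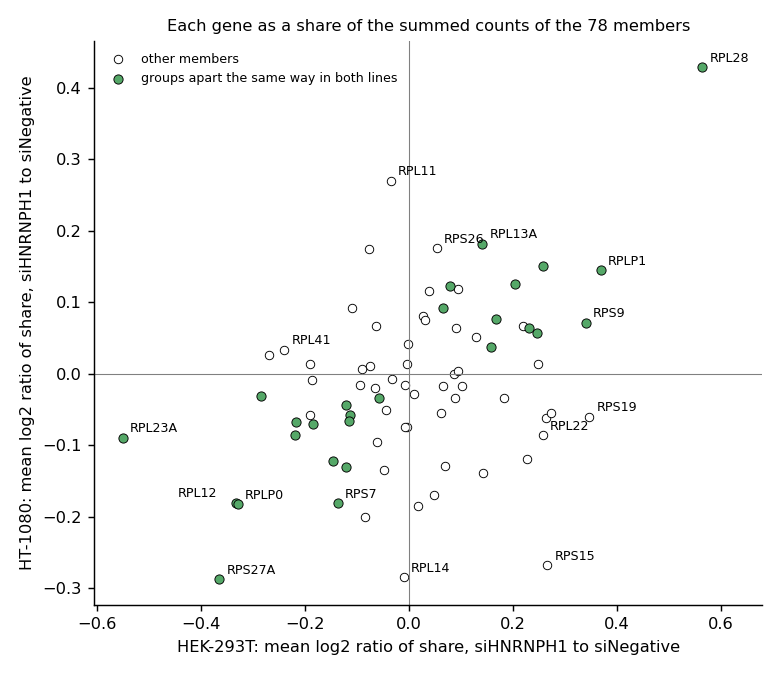
Mean log2 ratio of each gene's share of the summed counts of the 78 ribosomal protein genes, siHNRNPH1 to siNegative, in HEK-293T (horizontal) and HT-1080 (vertical), with 3 libraries per group; green points are the 27 genes whose groups did not overlap in the same direction in both lines. RPL28 stands alone at 0.56 and 0.43, and RPL23A, RPS27A, RPLP0 and RPL12 lie below 0 in both lines.

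The named functional groups did not behave as blocks. Of the stalk proteins, RPLP0 had a lower share in both lines and RPLP1 a higher one, while RPLP2 was separated upward in HEK-293T and downward in HT-1080. Of the proteins made as fusions to ubiquitin or a ubiquitin-like protein, RPS27A had a lower share in both lines. FAU, which encodes the small subunit protein eS30 fused to a ubiquitin-like protein, was at 214, 198 and 196 CPM in the HEK-293T controls and 445, 231 and 211 CPM after siHNRNPH1, and at 168, 205 and 170 CPM against 173, 185 and 175 CPM in HT-1080. It was not called in either line, with or without the libraries that stood apart, other than in HEK-293T with the length trend removed (0.30, adjusted p = 0.0356). RPSA, also known as the laminin receptor precursor, had a log2 fold change of 0.52 ± 0.36 in HEK-293T with all libraries (adjusted p = 0.41) and -0.00 ± 0.03 without replicate 1 (adjusted p = 0.951). In HT-1080 it was at 0.02 ± 0.08 with all libraries (adjusted p = 0.81) and 0.13 ± 0.02 without siNegative replicate 2 (adjusted p = 1.75e-06). RPS6, whose protein is phosphorylated by S6 kinase, was at 1308, 1236 and 1247 CPM in the HEK-293T controls and 1802, 1063 and 1077 CPM after siHNRNPH1. Its change was 0.043 ± 0.26 with all libraries and -0.30 ± 0.03 without replicate 1 (adjusted p = 6.24e-09), and in HT-1080 -0.047 ± 0.08 with all libraries and 0.054 ± 0.02 without siNegative replicate 2 (adjusted p = 0.0268). RPL36A, whose locus adjoins that of HNRNPH2, gave 0.20 ± 0.36 in HEK-293T with all libraries and -0.32 ± 0.03 without replicate 1 (adjusted p = 1.15e-09). In HT-1080 it gave -0.03 ± 0.10 with all libraries and 0.10 ± 0.05 without siNegative replicate 2, with no call in either.

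How each gene divided its counts among its transcripts (transcript usage) was tested with diffSplice in limma, with BH adjustment over all genes with several transcripts. In HEK-293T 9 of 78 genes passed (9.59% of 13018 genes) and in HT-1080 8 of 78 (21.2% of 10752 genes). By this test the share of ribosomal protein genes was near that of all genes in HEK-293T and below it in HT-1080. An alternative test, diffSpliceDGE in edgeR, called 9 of 78 in HEK-293T (5.44% of genes) and 6 of 78 in HT-1080 (5.37%). There the share of ribosomal protein genes was above that of all genes in both lines, so the relation depended on the test. In limma, RPL15, RPL17 and RPS24 passed in both lines. RPL14, RPL21, RPL31, RPS4X, RPS9 and RPS13 passed in HEK-293T, and RPL28, RPL37, RPS2, RPS20 and RPS27A in HT-1080. Whether usage differed between the lines was not tested. Without siHNRNPH1 replicate 1, 50 of 78 passed in HEK-293T (41.6% of genes), and without siNegative replicate 2, 15 of 78 in HT-1080 (20.1%). Of the calls above, those of RPS4X in HEK-293T (limma BH-adjusted p = 0.263) and of RPS2 (adjusted p = 0.999858) and RPS20 (adjusted p = 0.211) in HT-1080 were lost in these fits. The counts per transcript are estimates that divide reads among overlapping transcripts, the exons of each transcript are not in the tables, and 1353 pseudogenes carry the name of a member. These pseudogenes held 1.04% to 1.46% of the joint counts of members and pseudogenes.

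RPL28 had the smallest adjusted p of usage of the 78 in HT-1080 (limma BH-adjusted p = 3.46e-14). The transcript ENST00000344063.7 held 11.1%, 7.93% and 10.1% of RPL28 counts in the siNegative and 24.2%, 23.01% and 24.9% in the siHNRNPH1 libraries of HT-1080. In HEK-293T it held 25.1%, 26.1% and 25.7% against 25.9%, 51.0% and 53.9%. Replicate 1 of siHNRNPH1 was at the level of the controls, so that the gene did not pass there with all libraries (adjusted p = 0.176) and passed without that one (adjusted p = 1.32e-15). ENST00000559463.5 went the other way, from 17.8%, 21.6% and 17.2% to 11.5%, 11.8% and 11.5% in HT-1080. In HEK-293T it held 14.1%, 14.5% and 11.6% against 19.5%, 3.52% and 2.87%. Replicate 1 of HEK-293T thus had a higher level of RPL28, as did the other siHNRNPH1 libraries, without their shift in transcript make-up.

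**Figure D4:**
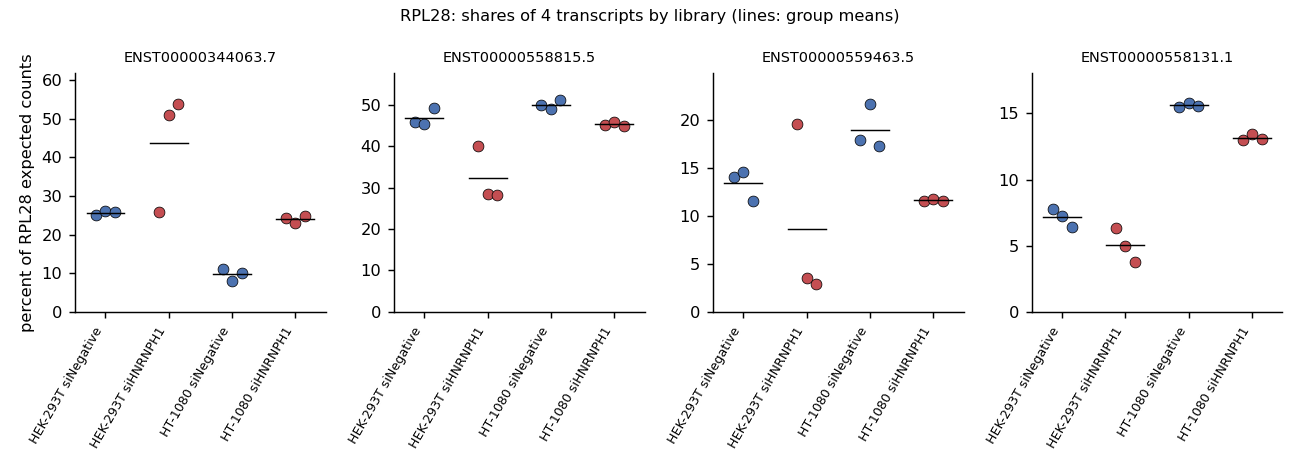
Percent of RPL28 expected counts held by 4 of its transcripts in each library, by group (blue siNegative, red siHNRNPH1), with a line at each group mean of 3 libraries; each panel has its own vertical axis from 0. ENST00000344063.7 is higher after siHNRNPH1 in all HT-1080 libraries and in 2 of 3 HEK-293T libraries, and replicate 1 of HEK-293T siHNRNPH1 lies with the controls at 25.9%.

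In 2 of the genes that passed in both lines, a minor transcript moved the same way in each. RPL15, a large subunit protein needed for early assembly, gave ENST00000644185.1 5.51%, 4.65% and 4.95% of its counts in the HEK-293T controls and 1.71%, 0.881% and 0.811% after siHNRNPH1, and 4.56%, 4.64% and 3.90% against 1.96%, 2.20% and 2.22% in HT-1080. RPL17, a protein at the tunnel exit, gave ENST00000578532.5 8.66%, 8.68% and 8.66% against 4.45%, 4.88% and 4.96% in HEK-293T and 5.99%, 5.10% and 5.40% against 3.86%, 3.75% and 4.22% in HT-1080. No group overlapped in these 4 comparisons. The limma adjusted p of these transcripts was 0.000386 and 0.000434 for RPL15 and 0.0335 and 0.0286 for RPL17, in HEK-293T and HT-1080.

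RPS24, a small subunit protein mutated in Diamond-Blackfan anaemia and known for short alternative exons near its 3′ end, divided its counts mainly between ENST00000372360.9 and ENST00000613865.5. The first held 52.3%, 52.8% and 52.5% in the HEK-293T controls and 59.6%, 57.8% and 56.4% after siHNRNPH1, and 25.02%, 23.9% and 23.9% against 32.5%, 34.1% and 33.8% in HT-1080. The second held 62.2%, 62.9% and 60.4% against 50.5%, 52.1% and 52.4% in HT-1080. Both transcripts passed in HT-1080 (limma adjusted p of 0.000129 and 9.99e-05) and neither did in HEK-293T, where the transcripts past the threshold, ENST00000360830.9 and ENST00000482069.5, held 0.102% and 0.834% of the counts in the controls. RPL31 passed in HEK-293T with all libraries. In HT-1080 it did not with all libraries (limma BH-adjusted p = 0.763) and did without siNegative replicate 2 (adjusted p = 0.0236). In HEK-293T ENST00000264258.8 held 30.6%, 30.6% and 32.0% in the controls and 10.1%, 19.2% and 19.6% after siHNRNPH1, and ENST00000409733.5 2.46%, 2.33% and 2.24% against 19.3%, 8.96% and 8.60%. In HT-1080 the library that stood apart, siNegative replicate 2, had 14.8% of the first and 13.9% of the second, against 22.9% to 24.6% and 5.61% to 6.44% in the other controls. Both transcripts of RPL31 thus moved in that control library in the direction seen in replicate 1 of HEK-293T.

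Of the other genes known for alternative exons, RPL3, RPL10A, RPL12 and RPS3 gave no call of usage in either line with all libraries. Without HEK-293T siHNRNPH1 replicate 1, RPL10A (limma BH-adjusted p = 0.00221), RPL12 (8.79e-06) and RPS3 (1.6e-05) were called in that line, and RPL3 was not (0.0883). The main transcripts of RPL3 and RPL12 held 92.5% to 96.4% and 94.8% to 96.6% of their counts in every library. Other calls included minor transcripts, such as ENST00000272274.8 of RPL21, with 0.654% to 0.819% in the HEK-293T controls and 0.0688% to 0.0814% after siHNRNPH1, and ENST00000533161.5 of RPS2, with 4.39% to 4.92% in the HT-1080 controls and 2.01% to 2.12% after siHNRNPH1, whose gene lost its call without siNegative replicate 2.

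The IsoSeq pools list each transcript model once, with no read count, so they give structures and no amounts. They held 152 and 215 models of ribosomal protein genes in HEK-293T (siNegative and siHNRNPH1) and 439 and 423 in HT-1080, for 46, 56, 75 and 74 of the 78 genes. The median model length of these genes was 2476 and 2378 nt in HEK-293T and 853 and 828 nt in HT-1080, so the HEK-293T pools listed longer models for these genes. RPL28 had 1 and 6 models in HEK-293T and 3 and 4 in HT-1080, too few to set against the shares above. At RPL15 the junction from 23917173 to 23917850 of chromosome 3 (GRCh38.p13, per the submitters' processing notes) was in 1 of 7 and 3 of 10 models of HEK-293T and in 5 of 11 and 4 of 10 models of HT-1080. Models are structures listed once, from 1 pool per group, so these counts carry no sampling interval and do not compare the groups in amount.

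Single ribosomal protein genes differed between the cell lines by up to 1.92 on the log2 scale, with RPL28 again at the top. Between the siNegative cells, 28 genes were higher and 2 lower in HT-1080 than in HEK-293T in edgeR, where 72.3% of the 21276 genes tested were called, 34.1% as higher and 38.2% as lower, and the median difference was 0.39 on the log2 scale against -0.11 for all genes. RPL28 was at 704 to 866 CPM in HT-1080 and 237 to 245 CPM in HEK-293T, a difference of 1.92 ± 0.25 (adjusted p = 3.92e-05). RPS21, RPLP2 and RPS15, of which all but RPLP2 belong to the small subunit, followed with 1.72, 1.70 and 1.69. RPS4X, the X-linked form of a small subunit protein, was at 963 to 1144 CPM against 2339 to 2362 CPM, a difference of -0.97 ± 0.24 (adjusted p = 0.00385). RPL39, a small protein within the peptide tunnel, was at 327 to 439 CPM against 766 to 852 CPM, a difference of -0.91 ± 0.31 (adjusted p = 0.0221). Without both libraries that stood apart, 54 genes were higher (39.2% of 21734 genes) and 20 lower (44.6%), and these 6 kept their direction, from -1.07 for RPS4X and for RPL39 to 1.82 for RPL28. Under a scaling by the members the split was 24 higher (24.3%) and 20 lower (39.3%), with the median of all genes at -0.47. The lines are in separate tables, and cell line and batch cannot be told apart.

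**Figure D5:**
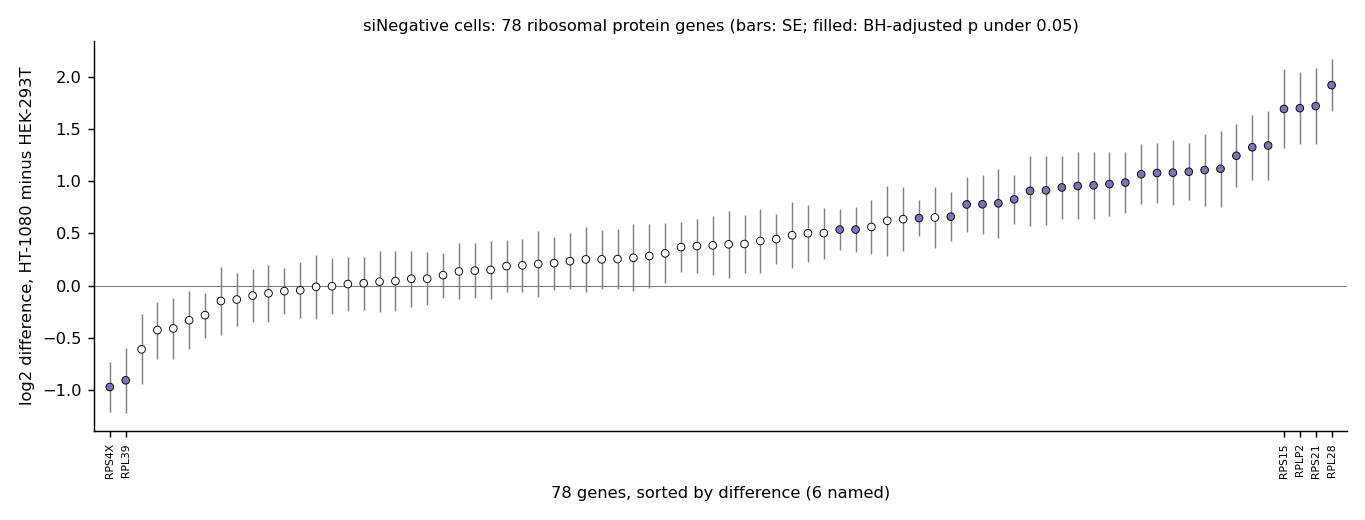
Log2 difference between the siNegative cells of HT-1080 and HEK-293T for each of the 78 ribosomal protein genes, sorted, with the SE as bars; filled points had an edgeR BH-adjusted p under 0.05. The values run from -0.97 (RPS4X) to 1.92 (RPL28), with 63 of 78 above 0.

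Several ribosomal proteins have a paralog outside the 78. Of 9 paralogs listed, 7 were tested in HEK-293T and 6 in HT-1080. In HT-1080 2 rose and 3 fell, where 32.7% of all genes were called as higher and 32.6% as lower. RPL26L1 went from 12.999, 16.8 and 11.8 CPM to 26.9, 27.0 and 26.7 CPM (log2 fold change 0.88 ± 0.11, edgeR BH-adjusted p = 8.59e-05), while RPL26 itself was at -0.06 ± 0.08 (adjusted p = 0.56). RPL22L1 went from 69.0, 79.4 and 66.0 CPM to 99.5, 120.8 and 112.8 CPM (0.57 ± 0.09, adjusted p = 0.0003) and RPL22 was at -0.12 ± 0.06 (adjusted p = 0.11). RPL36AL, RPL7L1 and RPS27L fell by 0.47, 0.38 and 0.38 on the log2 scale. In HEK-293T 0 of 7 passed in edgeR with all libraries, and 1 had an unadjusted p under 0.05. Without replicate 1, RPL22L1 was lower there, at -0.20 ± 0.05 (adjusted p = 0.000719), while RPL22 was higher. The call of RPL22L1 was lost when libraries were scaled by the 78 genes (0.0094, adjusted p = 0.876). RPS27L, a p53 target related to RPS27, was at 25.7, 23.6 and 25.2 CPM in the HEK-293T controls and 58.0, 30.8 and 31.9 CPM after siHNRNPH1, and at 178, 216 and 180 CPM against 152, 156 and 155 CPM in HT-1080. It was the only paralog with an interaction call, at -1.15 ± 0.34 (adjusted p = 0.0386), and the call was lost without HT-1080 siNegative replicate 2 (adjusted p = 0.0994). RPL39L was at 8.86 to 9.10 CPM in the HEK-293T controls and did not pass the filter in HT-1080.

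Other genes of ribosome production and its control were taken from lists, and most of the mitochondrial ribosomal protein and biogenesis genes fell in HT-1080. With all libraries, 32.6% of all genes tested were called as lower and 32.7% as higher in HT-1080. In HEK-293T 10.0% were called in either direction. Of 83 mitochondrial ribosomal proteins, 57 fell and 6 rose in HT-1080 (median -0.35), and 5 fell and 0 rose in HEK-293T (median 0.16). MRPL50 was lower in both lines (-1.31 ± 0.12 in HEK-293T and -2.55 ± 0.07 in HT-1080), as were MRPL58 (-2.05 and -1.67), MRPL42 (-1.41 and -0.81) and MRPS16 (-1.04 and -0.38). Of 46 ribosome biogenesis factors, 35 fell and 4 rose in HT-1080 (median -0.35), and 2 fell in HEK-293T. The 2 were TSR1, a maturation factor of the small subunit (-1.22 ± 0.12 in HEK-293T and -0.72 ± 0.05 in HT-1080), and EFL1, a GTPase that releases eIF6 (-0.72 and -0.52). NCL, which encodes nucleolin, fell by 0.99 in HT-1080, and NOLC1 rose by 1.14. Of 14 genes of RNA polymerase I, which makes the ribosomal RNA precursor, 6 fell and 3 rose in HT-1080, and 1, POLR1G, rose in HEK-293T (0.63 ± 0.11).

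Of 12 genes for chaperones of ribosomal proteins and assembly of the 5S particle, 6 fell and 2 rose in HT-1080 and 1, NAP1L1, fell in HEK-293T (-0.92 ± 0.12, and -0.60 in HT-1080). Of 22 other genes with TOP mRNAs, 8 fell and 5 rose in HT-1080 (median -0.04) and 1, again NAP1L1, fell in HEK-293T. EEF1B2, a subunit of the exchange factor of elongation factor 1, was at -1.27 ± 0.08 in HT-1080 (adjusted p = 4.39e-07) and at -0.83 ± 0.29 in HEK-293T (adjusted p = 0.136; -1.23 without replicate 1). EIF3F rose by 0.68 in HT-1080. Of the regulators of TOP mRNAs and of ribosomal protein transcription, 15 of 24 gene identifiers tested fell and 3 rose in HT-1080, and 1 rose in HEK-293T. That gene, MYC, rose by 1.15 ± 0.18 in HEK-293T (adjusted p = 0.0189) and fell by 1.06 on the log2 scale in HT-1080 (SE 0.05), and the difference passed the interaction test (-2.29 ± 0.20, adjusted p = 4.38e-05). LARP1 did not pass in either line (-0.30 ± 0.29 and -0.15 ± 0.07). Without HEK-293T siHNRNPH1 replicate 1, 54 mitochondrial ribosomal proteins were lower and 11 higher in that line, against 31.3% and 30.5% of all genes. Without HT-1080 siNegative replicate 2, 58 were lower and 12 higher in HT-1080, against 35.5% and 34.7% of all genes. The share of all genes called in the fits with all libraries is that given above. It was 10.0% in HEK-293T and 65.3% in HT-1080, there 32.6% as lower and 32.7% as higher.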

How the data were processed

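Total RNA of 12 short-read libraries and 4 IsoSeq pools was available. The deposited short-read values were expected counts per transcript, 1 table per cell line, which the authors had made with RSEM on GRCh38.p13, per the submitters' processing notes; the RSEM version, aligner, annotation release and strandedness are not given in the sources used here. The IsoSeq tables held exon positions of collapsed transcript models, per the file headers. All 12 sample columns matched a label, and 0 were left unmatched.

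Expected counts were summed per gene identifier and rounded to whole counts. Libraries held 27.3 to 121.03 M counts. Chi-square per degree of freedom between libraries of a group, without those that stood apart, was 3.39 to 9.105 in HEK-293T. In HT-1080 it was 1.78 to 2.42. Counting error alone gives about 1, so counting error was not small beside the spread between HT-1080 libraries. Genes were tested two-sided with edgeR 4.0.16 (R 4.3.3; filterByExpr, TMM, robust quasi-likelihood), with BH adjustment over all genes tested at a threshold of 0.05, for each line alone and, for the interaction and the control lines, in a model of all 12 libraries. Fold changes are on the log2 scale, as fitted from the deposited expected counts, and CPM uses the library total. Transcript usage was tested with limma 3.58.1, with diffSpliceDGE of edgeR as an alternative. DESeq2 1.42.0 was an alternative for the tests of genes. Others were RLE scaling, library size alone, no filter, pseudogene counts added to their members, a replicate block, 1 fit of 12 libraries, a length trend removed per library (lowess span 0.3, model lengths for 76 of 78 genes, 97.4%) and each library left out. A scaling by the 78 genes and combinations with a library left out were chosen after seeing the data. Each fit was also checked on simulated counts.

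The replicates are biological replicates per the labels, and replicate numbers were not taken to pair libraries (closing section). Named genes were HNRNPH1; genes called in both lines; per line and direction up to 5 called genes with the largest fold change; up to 5 by the interaction and by the control lines; paralogs and their parents; genes with called usage; and genes of known alternative exons, the stalk, the 5S particle and ubiquitin fusions, with up to 3 genes per direction from each other list. RPL6, RPL8, RPL9, RPL13A and other genes named only in sets by share were named from their values, as were RPL23A, RPL41 and RPS7 in HEK-293T, LARP1 and the transcripts described. The 78 genes and the lists were chosen with earlier results of these data known. For 15 of the 78 genes no start was matched in the RefSeq table, among them RPS15A, RPL30, RPL7, RPL5, RPL23, RPS20, RPS2, RPL23A, RPL37 and RPL8. Some genes are not reported by name here. Figures were drawn with Python 3.11.15.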

Additional observations from a re-analysis of the deposited data

Results flagged for a closer look

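The response to siHNRNPH1 differed between the lines in these results, each by the cell line by siRNA interaction in edgeR. RPS27L had a difference of log2 fold change, HT-1080 minus HEK-293T, of -1.15 with all 12 libraries (BH-adjusted p = 0.0386), and its call was lost without HT-1080 siNegative replicate 2. MYC had a difference of -2.29 with all 12 libraries, with calls in opposite directions in the lines. No fit with a library left out is given for MYC. Among the 78 ribosomal protein genes no difference was called with all libraries, and without both libraries that favour short genes 63 had a more positive and 1, RPL22, a more negative response in HT-1080.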

How the results depend on the processing

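Of the 1078 values of named genes recomputed under an alternative, 956 kept their direction and side of the threshold, 45 lost a call, 43 gained one and 34 reversed. Causes were not tested. With the length trend removed, HEK-293T gave 4 genes higher and 3 lower, and 21 and 31 without siHNRNPH1 replicate 1 (large subunit median -0.027). HT-1080 gave 40 higher, with medians of 0.091 (large) and 0.067 (small), and, without siNegative replicate 2, 57 higher with medians of 0.12 and 0.12. The interaction then gave 6 higher and 6 lower, or 46 and 8 without both libraries (medians 0.14 and 0.12), and the control lines 25 lower. Genes reversed in HT-1080 with the trend removed, to 0.10 for RPL10, 0.094 for RPL10A, 0.084 for RPL17, 0.11 for RPL26, 0.12 for RPL36A, 0.15 for RPL41 and 0.11 for RPS6. Scaled to the members, HT-1080 gave 3 lower and the control lines 20 lower. With a library also left out, this scaling gave 22 higher and 22 lower in HEK-293T and 16 and 17 in HT-1080. By library size alone, HT-1080 gave 3 lower, with medians of 0.0098 and 0.015, and the control lines 6 lower. Without the filter HT-1080 gave 12 lower and the control lines 6 lower. In 1 fit of 12 libraries HEK-293T gave 2 higher and HT-1080 0 higher and 0 lower. DESeq2 gave 1 lower interaction. Without both libraries that favour short genes the interaction gave 63 higher and 1 lower (medians 0.26 and 0.24), and the control lines 54 higher and 20 lower. Over transcripts of at least 5% of their gene, usage was called in 2 of 47 genes in HEK-293T (11% of all genes). In HT-1080 it was called in 3 of 42 (25.1% of all genes). With the length trend removed and all libraries, 8.69% of all genes were called as higher and 9.93% as lower in HEK-293T. In HT-1080 these shares were 37.7% and 39.4%. The other counts of genes in this section are given without the share of all genes called in the same fit. They describe how the calls moved with the processing, and not how these genes stood against all genes.

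Replicate numbers were not shown to pair the libraries. Correlations of deviations between libraries of the same number were all positive, 0.02 to 0.09 in HEK-293T and 0.01 to 0.11 in HT-1080. Between libraries of different numbers they had both signs. In HEK-293T the lowest of these was -0.093 and the highest 0.067, and in HT-1080 the lowest was -0.092 and the highest 0.080. Not every library correlated best with its own number. Since the ranges overlap, these values cannot decide whether the libraries were weakly paired. With the replicate block HT-1080 gave 3 higher and 13 lower, HEK-293T and the interaction 0.

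Leaving out each library in turn gave 0 to 2 higher and 0 to 65 lower in HEK-293T, 1 to 34 higher and 1 to 12 lower in HT-1080, 0 to 9 higher and 0 to 1 lower for the interaction, and 14 to 56 higher and 1 to 7 lower for the control lines. Usage ranged from 2 to 50 genes in HEK-293T and 5 to 15 in HT-1080. The difference in library share ranged from -0.60 to 2.30 percentage points in HEK-293T and -0.12 to 0.61 in HT-1080. Medians ranged from -0.21 to 0.49 (large) and -0.20 to 0.46 (small) in HEK-293T, from -0.12 to 0.053 and -0.12 to 0.063 in HT-1080, and from -0.63 to 0.11 and -0.65 to 0.10 for the interaction.

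Counting only genes called in at least 1 of the fits compared, 22 named genes in HEK-293T reversed without siHNRNPH1 replicate 1, with ranges of RPL10 -0.21 to 0.49, RPL10A -0.28 to 0.43, RPL11 -0.26 to 0.45, RPL14 -0.19 to 0.43, RPL15 -0.16 to 0.28, RPL17 -0.33 to 0.35, RPL21 -0.23 to 0.53, RPL26 -0.25 to 0.37, RPL3 -0.14 to 0.52, RPL36A -0.32 to 0.41, RPL41 -0.49 to 0.28, RPL5 -0.20 to 0.29, RPL7 -0.26 to 0.41, RPLP2 -0.084 to 0.82, RPS2 -0.094 to 0.71, RPS21 -0.14 to 0.78, RPS24 -0.20 to 0.40, RPS27 -0.25 to 0.58, RPS3 -0.27 to 0.29, RPS4X -0.13 to 0.45, RPS6 -0.30 to 0.19 and RPS7 -0.32 to 0.30. Without siNegative replicate 2, 5 so counted in HT-1080 reversed, while RPL10, RPL10A, RPL15, RPL17, RPL26, RPL36A and RPS3 turned sign with no call in either fit, with ranges for the 5 of RPL31 -0.084 to 0.10, RPL41 -0.099 to 0.12, RPS21 -0.17 to 0.087, RPS24 -0.11 to 0.068 and RPS6 -0.11 to 0.054.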
